A study of Homo sapiens with 6 samples.

Results

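Transcript levels of 53 genes of the DNA damage checkpoint and of DNA repair were examined in cells of the established human pancreatic cancer line SW1990 and in a gemcitabine-resistant derivative of it. The genes were taken by symbol from a table of 19077 genes, and all 53 were found. They comprise 12 checkpoint genes, 11 of homologous recombination, 11 of the Fanconi anemia pathway, 3 of mismatch repair, 7 of base excision repair, 4 of nucleotide excision repair and 5 of end joining. Gemcitabine is a deoxycytidine analogue that stalls replication forks once it has been built into DNA.

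The resistant derivative was represented by 1 library, from cells kept with 100 nM gemcitabine in the medium. TRA-1-81 positive cells and TRA-1-81 negative cells were separated by flow cytometry from the parental line, with 2 libraries each, titled 0603 and 0610. The unsorted parental line gave 1 library. TRA-1-81 is a glycan epitope known from pluripotent stem cells. The parental cells grew in DMEM/F-12 with 10% fetal bovine serum and no drug is named for them. Resistance and the presence of the drug at harvest cannot be told apart, and the labels do not say whether the derivative is a single clone. They also do not say what 0603 and 0610 stand for, or whether each library had a culture of its own, so a p-value here reflects only how far these libraries spread, which may be technical. Levels are given as FPKM, the fragments of a gene per kilobase of its transcript, scaled to the library's total of mapped fragments, and differences as differences of log2(FPKM + 1), which understate the change of low genes. For a sorted fraction the value of library 0603 is followed by that of library 0610.

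Cells answer a stalled fork with the kinase ATR, which is brought to single-stranded DNA by ATRIP, switched on by TOPBP1 and relayed through claspin (CLSPN) to the kinase CHEK1. A double-strand break is sensed by MRE11A, RAD50 and NBN, which recruit the kinase ATM and, through it, CHEK2. Breaks are then resected and mended by homologous recombination or sealed directly by end joining, while the Fanconi anemia pathway unhooks crosslinks and guards forks, and the mismatch and excision pathways replace wrong or damaged bases and nucleotides.

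Every one of the 53 genes had an FPKM of at least 1 in each of the 6 libraries. In the resistant library the levels ran from 1.54 for ERCC4 to 274 for XRCC6, with a median of 11.2. The medians were 11.3 and 11.7 in the positive, 10.9 and 10.2 in the negative and 10.6 in the unsorted parental library. XRCC6 and XRCC5, the subunits of the Ku heterodimer that caps broken ends, and APEX1, the main endonuclease at abasic sites, were the highest members in every library. The lowest was ERCC4 in 5 libraries and FANCB, at 1.95, in the unsorted parental one. The differences between libraries described here are mostly small against the distance between genes. A lower level in RNA from many cells can mean fewer cells expressing a gene or less RNA per cell, which cannot be told apart.

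**Figure D1:**
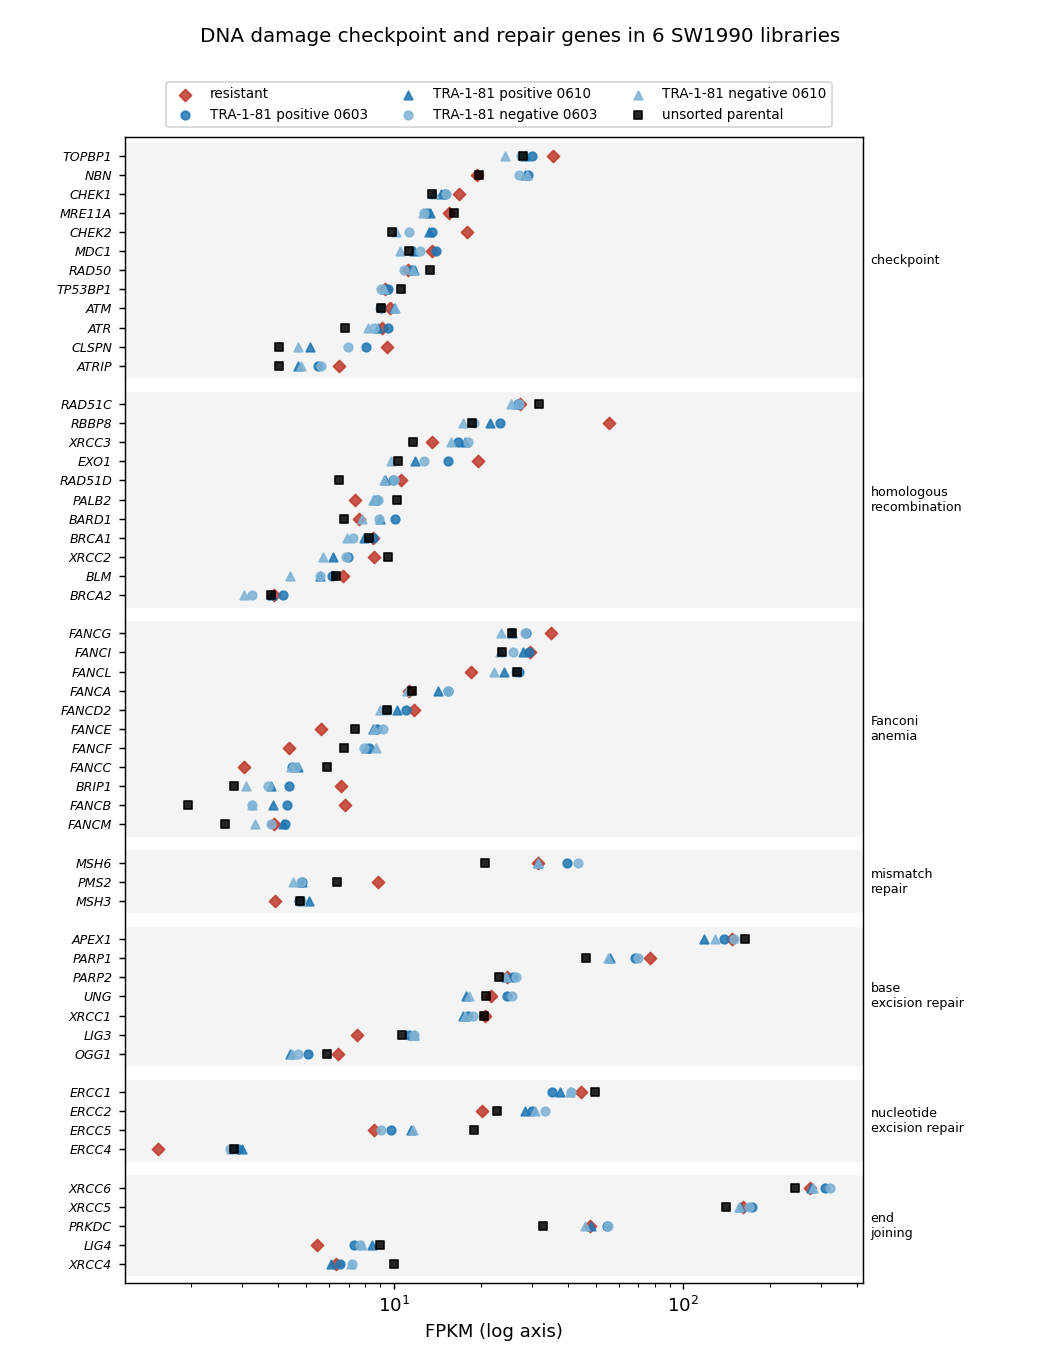
FPKM on a log axis for the 53 members, grouped by pathway, with 1 symbol for each of the 6 libraries. XRCC6, XRCC5 and APEX1 lie highest in every library, ERCC4 is lowest in the resistant library at 1.54, and most members have their 6 symbols close together, with RBBP8 standing apart at 55.6 in the resistant library.

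Between 11164 and 11729 genes reached an FPKM of 1 per library. An FPKM of 0.145 in the resistant, 0.0974 to 0.111 in the sorted and 0.175 in the unsorted parental library corresponded to about 3 fragments on a 1 kb transcript, a rough estimate from short genes, so every member lay well above that level. The libraries were epithelial by their markers: EPCAM, KRT7, KRT8, KRT18, KRT19 and CDH1 were all detected, with a summed FPKM of 4291 in resistant cells and 4694 to 5840 in the other 5 libraries. Of 6 fibroblast markers, 4 were under 1 in the resistant library and 4 or 5 in each of the others, and the sum was 20.2 in the resistant library and 2.86 to 5.38 in the others. Of 6 leukocyte markers, 4 were under 1 in every library, with a sum of 54.5 in the resistant library and 19.3 to 29.2 in the others. The fibroblast sum was mainly COL1A1, at 14.1 in the resistant library and 2.04 to 3.11 in the others, and LUM, at 6.04 and 0.729 to 2.33, and the leukocyte sum was mainly CD68, at 51.9 and 15.6 to 25.5. DCN was listed at 0 in the resistant and the sorted libraries, and PTPRC was at most 0.0205 in any. The 4 endothelial markers summed to 1.05 in the resistant library and 2.15 to 4.79 in the others. The part of these markers in the results was not tested.

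Resistant cells were first set against the unsorted parental line. With 1 library each there is no replicate check and no test, so a gene was counted when it was at least 2-fold apart, a log2 difference of 1 or more. By this rule 3 of 53 members were higher in resistant cells, CLSPN, RBBP8 and FANCB, against 13.5 percent of the 12066 genes measured in these libraries. A single member, ERCC5, was at least 2-fold lower, against 6.9 percent of all genes. Both shares of members lie below those of all genes, at 5.66 and 1.89 percent. The median log2 difference over the members was 0.09, the same as over all genes. In 35 of 53 members the difference was smaller than 0.5 in size, and the median size was 0.309 in members and 0.461 in all genes.

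The unsorted parental library is a single one, so the resistant value was also set against the range of all 5 parental-line libraries. It lay above all 5 in 18 members, against 38.5 percent of all genes, below all 5 in 12 members, against 30.1 percent, and within their range in 23. Where a log2 gap of at least 0.3 to the nearest of the 5 was required, 6 members lay above, CHEK2, RBBP8, EXO1, FANCB, BRIP1 and PMS2, against 21.5 percent of all genes. Another 6 lay below, FANCC, FANCE, FANCF, LIG3, ERCC4 and LIG4, against 14.6 percent. These counts share the unsorted parental library with the 2-fold counts. Quantile normalization shifted the resistant minus parental median of all genes by -0.16, to -0.07. Under it 14 members lay above and 15 below all 5, in place of 18 and 12. The shares of all genes under this normalization are not given here, so these counts have no background beside them. The resistant values of BLM, FANCI, XRCC1 and OGG1 were no longer above all 5, and those of TP53BP1, RAD50 and FANCA came to lie below all 5. The differences of ATM, BRCA1, BRCA2, BLM, PARP2, XRCC1, OGG1 and UNG, all at most 0.11, turned negative.

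**Figure D2:**
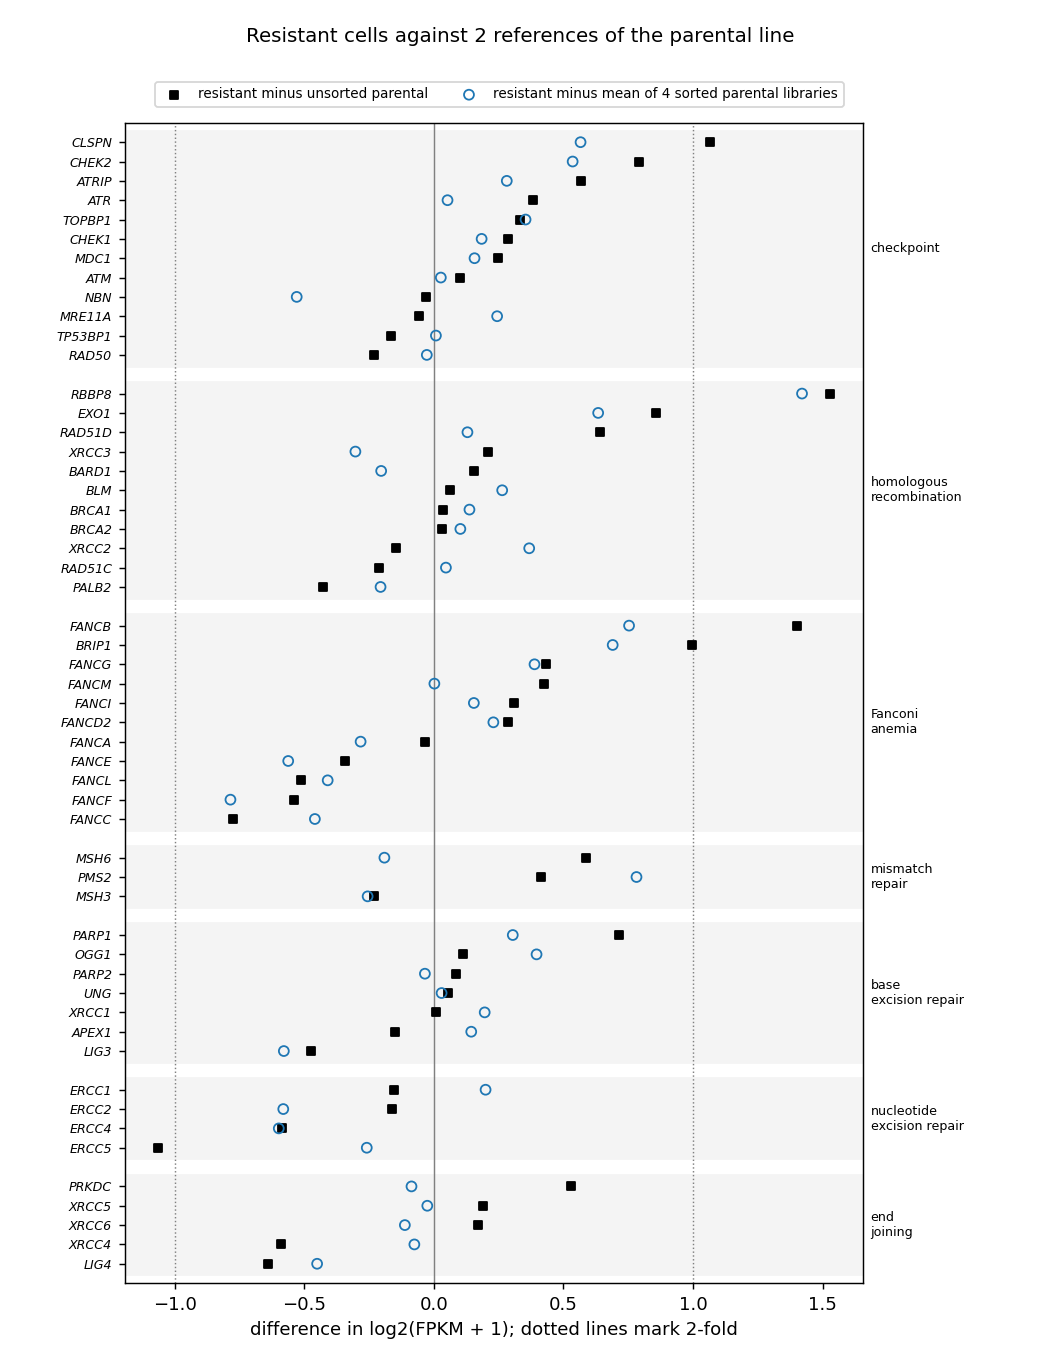
Difference in log2(FPKM + 1) of each member between resistant cells and the unsorted parental library (squares) and between resistant cells and the mean of the 4 sorted parental libraries (circles), with dotted lines at 2-fold. RBBP8 is past 2-fold by both symbols, at 1.53 and 1.42, while CLSPN, FANCB and ERCC5 are past it by the square alone.

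The promoters of the 3 members at least 2-fold higher in resistant cells are printed here, because these genes carry the largest upward differences among the members. Each is the stretch of 250 bases before the RefSeq transcription start on GRCh38.p14, 5′ to 3′ on the strand of the gene, and it was searched on both strands for the E2F letters TTTGGCGC and TTTCGCGC, the letters TTTGAA of the cell cycle genes homology region (CHR) and the letters CCAAT. Capitals mark matches, of which CLSPN has 3, all CCAAT boxes read on the opposite strand. The RBBP8 stretches, which precede 2 annotated starts, and that of FANCB hold none of these letters. CLSPN lies at chr1:35769979-35770228 on the minus strand, the RBBP8 stretches at chr18:22933078-22933327 and chr18:22933617-22933866 on the plus strand, and FANCB at chrX:14873070-14873319 on the minus strand.
CLSPN: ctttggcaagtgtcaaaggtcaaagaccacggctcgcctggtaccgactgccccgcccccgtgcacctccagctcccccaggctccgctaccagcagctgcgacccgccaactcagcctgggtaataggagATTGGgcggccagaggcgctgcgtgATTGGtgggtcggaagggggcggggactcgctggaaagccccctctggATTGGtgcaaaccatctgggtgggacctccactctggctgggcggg
RBBP8, upstream start: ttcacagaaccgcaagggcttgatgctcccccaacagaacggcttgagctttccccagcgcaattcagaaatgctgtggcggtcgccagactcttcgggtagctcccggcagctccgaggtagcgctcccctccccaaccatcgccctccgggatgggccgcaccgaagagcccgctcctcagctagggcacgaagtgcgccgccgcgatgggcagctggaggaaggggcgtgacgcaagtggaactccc
RBBP8, downstream start: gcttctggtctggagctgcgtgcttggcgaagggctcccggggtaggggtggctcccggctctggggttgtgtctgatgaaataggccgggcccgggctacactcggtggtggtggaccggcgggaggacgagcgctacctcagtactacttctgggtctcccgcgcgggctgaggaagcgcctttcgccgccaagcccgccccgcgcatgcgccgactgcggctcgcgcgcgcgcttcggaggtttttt
FANCB: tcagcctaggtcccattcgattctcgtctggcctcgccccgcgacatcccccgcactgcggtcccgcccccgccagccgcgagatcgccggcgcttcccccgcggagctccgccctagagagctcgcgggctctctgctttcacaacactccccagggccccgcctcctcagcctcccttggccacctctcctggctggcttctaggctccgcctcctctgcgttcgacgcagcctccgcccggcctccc

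Promoters could be matched for 49 of the 53 members. CCAAT was found in 26 of them, or 53.1 percent, and in 37 percent of 27305 genes. These 27305 are all genes with an annotated promoter, whether measured here or not, while every member was detected in each library. The shares are therefore not from like sets. Some genes have more than a single annotated start, as RBBP8 does, so the length searched may differ between genes. The E2F letters were found in FANCC and MSH3, 4.08 percent of the matched members against 1.2 percent of all, and TTTGAA in 7 members, 14.3 percent against 16.1 percent. These are matches of letters and not binding sites.

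Among the 12 checkpoint genes, the resistant library lay above all 5 parental-line libraries in 5, ATRIP, CHEK1, CHEK2, CLSPN and TOPBP1, and below all 5 in NBN alone. The share of 41.7 percent above all 5 is near the 38.5 percent of all genes, and that of 8.33 percent below all 5 stands beside 30.1 percent. The median log2 difference in this group was 0.27 from the unsorted parental library and 0.17 from the mean of the sorted ones. Over all genes these medians were 0.09 and 0.05. CLSPN, the adaptor that holds CHEK1 to active ATR (hg19 chromosome 1, 36197713 to 36235551), had an FPKM of 9.49 in resistant cells, against 8.06 and 5.13 in positive, 6.98 and 4.68 in negative and 4.01 in unsorted parental cells. Its log2 difference was 1.07 from the unsorted parental library and 0.57 from the mean of the sorted ones. The resistant value was the highest of the 6, but positive 0603 came within a log2 gap of 0.21 of it, and the sorted libraries fell into an upper pair of 0603 and a lower pair of 0610. With quantile normalization the difference was 0.90, and with a pseudocount of 5 it was 0.68, so under both it was not 2-fold.

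CHEK2, the effector kinase on the ATM side (chromosome 22, 29083731 to 29137822), stood further outside the parental range. Its FPKM was 17.9 in resistant cells, against 13.6 and 13.3 in positive, 11.3 and 10.2 in negative and 9.91 in unsorted parental cells. The difference from the unsorted parental library was 0.79. Both positive values lay above both negative ones, as in 18.6 percent of all genes. All 4 sorted values lay above the unsorted one, as in 44.8 percent. Near-identical copies of parts of CHEK2 exist elsewhere in the genome, and how fragments were shared among them is not given in the sources used here, so its level is uncertain.

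The remaining members of the ATR branch were closer to the parental line. The resistant FPKM of ATRIP, CHEK1 and TOPBP1 was 6.47, 16.8 and 35.4, against highest parental-line values of 5.63, 15.2 and 30.1, and the log2 differences from the unsorted library were 0.57, 0.28 and 0.33. ATR itself, at 9.14 in resistant cells, lay within the sorted range of 8.19 to 9.55 and above the 6.78 of the unsorted parental library. The break sensors did not follow this direction. NBN was 19.3 in resistant cells, against 29.1 and 28.4 in positive, 27.0 and 28.9 in negative and 19.8 in unsorted parental cells, so both unsorted libraries lay well below the 4 sorted ones. RAD50 had the lowest ratio of the group, at 11.2 in resistant cells, against 11.6 and 11.8 in positive, 10.9 and 11.7 in negative and 13.3 in unsorted parental cells, a difference of -0.23 that was within the parental range. MRE11A, ATM and the adaptors TP53BP1 and MDC1, which gather at broken DNA, also stayed within the range of the 5, with differences from the unsorted parental library between -0.17 and 0.25.

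Homologous recombination held the largest difference among the members. RBBP8, or CtIP, starts the resection of broken ends together with MRE11A, RAD50 and NBN (chromosome 18, 20513295 to 20606449). Its FPKM was 55.6 in resistant cells, against 23.3 and 21.5 in positive, 19.01 and 17.3 in negative and 18.6 in unsorted parental cells. The resistant value was thus 2.98 times that of the unsorted parental library and 2.74 times the mean of the sorted ones, with log2 differences of 1.53 and 1.42, and the 5 parental-line values did not come near it. RBBP8 was the only member at least 2-fold higher against both. Against the sorted mean it was the single one of 53, where 8.18 percent of all genes were 2-fold higher, and no member was 2-fold lower, where 4.89 percent were. Among all genes its difference from the unsorted parental library took rank 833 of 12066. Its nuclease partners did not share the difference, and the ratio of RBBP8 to NBN was 2.88 in resistant cells and 0.599 to 0.944 in the parental-line libraries.

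EXO1, the exonuclease that extends resection (chromosome 1, 242011493 to 242053241), had an FPKM of 19.6 in resistant cells, against 15.4 and 11.8 in positive, 12.7 and 9.80 in negative and 10.4 in unsorted parental cells. The log2 difference from the unsorted parental library was 0.86, and the resistant value cleared the nearest library, positive 0603, by 0.33. PALB2, which links BRCA1 to BRCA2, had the lowest ratio of this group. It was 7.38 in resistant cells, against 8.73 and 8.57 in positive, 8.85 and 8.51 in negative and 10.3 in unsorted parental cells, a difference of -0.43 with the resistant library below all 5.

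The mediators themselves differed little. BRCA1 was 8.48 in resistant and 8.26 in unsorted parental cells, and BRCA2, which loads the recombinase, was 3.88 and 3.78 in the same libraries. BARD1, the partner of BRCA1 in its ubiquitin ligase, was 7.61 in resistant cells, within the 6.72 to 10.1 of the parental line. Among the recombinase paralogs RAD51D, at 10.6 in resistant cells, lay just above the highest parental-line value of 10.1, and RAD51C, XRCC2 and XRCC3 lay within the range of the 5. XRCC3 overlaps KLC1 on the genome, so its level is uncertain. BLM, the helicase that dissolves joint molecules, was 6.68 in resistant cells against at most 6.34 in the parental line.

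The Fanconi anemia genes lay on both sides, with 6 higher and 5 lower in resistant cells when set against the unsorted parental library. The 54.5 percent that were higher is near the 55.3 percent of all genes. The median log2 difference was 0.29 from the unsorted parental library, where that of all genes was 0.09. From the mean of the sorted libraries it was 0.002, where that of all genes was 0.05. Both ends of this spread lay inside 1 protein assembly, the core complex, in which FANCL is the ubiquitin ligase, FANCB supports it, and FANCC, FANCE and FANCF form a substrate arm. FANCB (chromosome X, 14861529 to 14891184) had an FPKM of 6.81 in resistant cells, against 4.28 and 3.83 in positive, 3.25 and 3.25 in negative and 1.95 in unsorted parental cells. The log2 difference was 1.40 from the unsorted parental library and 0.75 from the sorted mean, so the size depends on which parental library is used, but the resistant value cleared all 5 by a gap of 0.56. With a pseudocount of 5 the difference was 0.76, below 2-fold.

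The genes of the substrate arm lay on the other side. FANCC was 3.04 in resistant cells, against 4.47 and 4.68 in positive, 4.61 and 4.44 in negative and 5.91 in unsorted parental cells, a log2 difference of -0.77. FANCE was 5.61 in resistant cells, against 8.74 and 8.51 in positive, 9.21 and 8.57 in negative and 7.37 in unsorted parental cells, a difference of -0.34. FANCF was 4.34 in resistant cells, against 8.22 and 8.01 in positive, 7.94 and 8.67 in negative and 6.77 in unsorted parental cells, a difference of -0.54 from the unsorted and -0.78 from the sorted mean. In all 3 the resistant library lay below every parental-line library, by gaps of at least 0.3, and none was 2-fold lower. The ratio of FANCB to FANCF was 1.57 in resistant cells and 0.289 to 0.521 in the parental-line libraries.

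FANCL was also below all 5, at 18.5 in resistant cells against 22.1 to 27.1 in the parental line. FANCG, a scaffold of the complex, was above all 5, at 35.0 in resistant cells against 23.6 to 28.7. The FANCI and FANCD2 proteins form the clamp that the complex ubiquitinates, and their transcripts differed little, with FANCI at 29.6 in resistant cells against at most 29.5 and FANCD2 at 11.8 against at most 11.01 in the parental line. The ratio of FANCD2 to FANCI was 0.398 in resistant cells and 0.367 to 0.400 in the parental line. FANCA and FANCM lay within the range of the 5. FANCA overlaps ZNF276 and FANCD2 has partial copies and overlaps FANCD2OS, so these levels are uncertain.

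BRIP1, a helicase that binds BRCA1 and acts downstream of the complex (chromosome 17, 59756547 to 59940920), was 6.58 in resistant cells, against 4.34 and 3.79 in positive, 3.67 and 3.08 in negative and 2.80 in unsorted parental cells. As a ratio of FPKM it was 2.35 times the unsorted parental value, and its log2 difference on the scale with 1 added was 0.996, so it was not counted as 2-fold. The resistant value cleared the nearest parental-line library by 0.51.

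**Figure D3:**
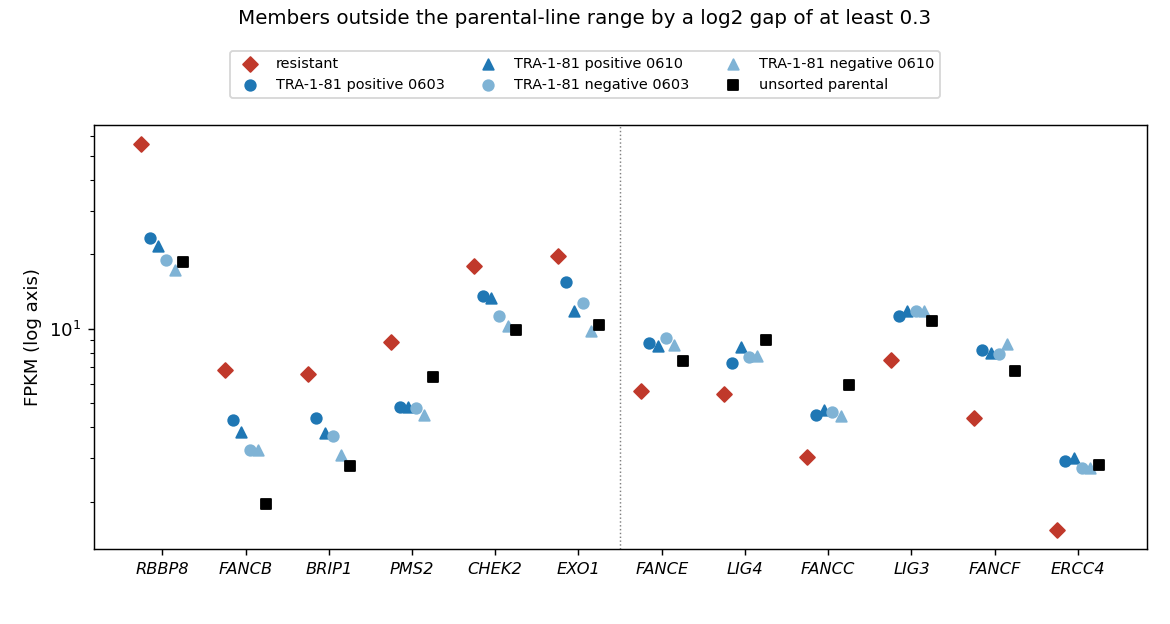
FPKM on a log axis in the 6 libraries for the 12 members whose resistant value lies outside all 5 parental-line libraries by a log2 gap of at least 0.3. Left of the dotted line the resistant value is highest, with RBBP8 at 55.6 against at most 23.3, and right of it the resistant value is lowest, with FANCF at 4.34 against at least 6.77.

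In mismatch repair, MSH6 and MSH3 are alternative partners in the complexes that recognise mispairs and small loops. MSH6 was 31.6 in resistant cells, against 39.8 and 31.5 in positive, 43.2 and 31.5 in negative and 20.7 in unsorted parental cells, a log2 difference of 0.59 that lay within the parental-line range. MSH3 was 3.90 in resistant cells, against 4.72 and 5.11 in positive, 4.79 and 4.78 in negative and 4.75 in unsorted parental cells, below all 5 with a difference of -0.23. PMS2, a subunit of the endonuclease that acts after recognition, was 8.86 in resistant cells, against 4.84 and 4.83 in positive, 4.78 and 4.49 in negative and 6.40 in unsorted parental cells. The resistant library lay above all 5 with a gap of 0.41. PMS2 has several near-identical pseudogenes, so its level is uncertain.

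In base excision repair the largest differences were in PARP1 and LIG3. PARP1 was 76.8 in resistant cells, against 68.4 and 55.9 in positive, 70.03 and 54.9 in negative and 46.4 in unsorted parental cells, a log2 difference of 0.72 from the unsorted parental library, with the 0603 libraries near the resistant value. LIG3, the ligase that closes the gap together with the scaffold XRCC1 (chromosome 17, 33307517 to 33332088), was 7.46 in resistant cells, against 11.3 and 11.7 in positive, 11.8 and 11.7 in negative and 10.7 in unsorted parental cells. The parental-line values were tightly grouped and the resistant one lay below them by a gap of 0.47. XRCC1 itself was 20.7 in resistant cells against 17.4 to 20.6 in the parental line, so the ratio of XRCC1 to LIG3 was 2.78 in resistant cells and 1.48 to 1.92 in the parental line. The glycosylase OGG1, which removes oxidised guanine, was 6.43 in resistant cells against at most 5.87, and it overlaps CAMK1. PARP2, the uracil glycosylase UNG and APEX1 lay within the range of the 5.

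All 4 members of nucleotide excision repair were lower in the resistant than in the unsorted parental library, by a median log2 difference of -0.37, and 3 of them were also lower than the mean of the sorted libraries. Set against the unsorted parental library, 44.7 percent of all genes were lower, and the further genes of this pathway split into 8 higher and 11 lower. Over all genes 6523 of 12157 were higher and 5634 lower than the sorted mean, with a median of 0.05. With the sorted mean as reference, 14 of the 20 further genes were higher in resistant cells and 6 lower, with a median of 0.18. The 14 include RAD23B, which was listed at 0 in the sorted libraries. ERCC4, the nuclease that cuts on the 5′ side of the lesion together with ERCC1 (chromosome 16, 14014014 to 14046205), was 1.54 in resistant cells, against 2.91 and 3.001 in positive, 2.74 and 2.75 in negative and 2.82 in unsorted parental cells. The 5 parental-line values spanned 2.74 to 3.001 and the resistant value was 0.547 times that of the unsorted library, a log2 difference of -0.59. ERCC1, its obligate partner, was 44.4 in resistant cells, against 35.2 and 37.5 in positive, 40.9 and 40.8 in negative and 49.5 in unsorted parental cells, within the range of the 5. ERCC1 overlaps CD3EAP on the opposite strand.

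ERCC5, the nuclease that cuts on the 3′ side (chromosome 13, 103498191 to 103528351), was 8.57 in resistant cells, against 9.83 and 11.5 in positive, 9.09 and 11.6 in negative and 18.995 in unsorted parental cells. The log2 difference was -1.06 from the unsorted parental library and -0.26 from the sorted mean, so it is the unsorted library that stood apart. ERCC5 shares its exons with the read-through gene BIVM-ERCC5, which was 13.8 in resistant cells, 8.42 to 8.73 in sorted cells and 12.3 in unsorted parental cells. Summed over both, the values were 22.3 in resistant, 17.8 to 20.1 in sorted and 31.3 in unsorted parental cells, and the resistant library was then above the sorted ones. The direction against the sorted cells therefore turns on how fragments were shared between the overlapping genes. ERCC2, a helicase of the factor that opens DNA around the lesion, was 20.2 in resistant cells, below the 22.7 to 33.4 of the parental line.

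In end joining, the Ku subunits and the kinase they recruit stayed within the parental-line range. XRCC5 was 161 and XRCC6 274 in resistant cells, with log2 differences of 0.19 and 0.17 from the unsorted parental library. From the mean of the sorted libraries these differences were -0.02 and -0.11, so their direction depends on the reference. With the sorted mean as reference, all 5 end joining members were lower in resistant cells, by a median of -0.09. Of all genes, 5634 of 12157 were lower against that mean, and the median was 0.05. The 6 further end joining genes split into 3 higher and 3 lower, with a median of 0.09. PRKDC, the catalytic subunit of DNA-dependent protein kinase, was 47.7 in resistant cells, against 54.6 and 48.2 in positive, 54.9 and 45.7 in negative and 32.8 in unsorted parental cells, where the unsorted library was the lowest. LIG4, the ligase of this pathway (chromosome 13, 108859792 to 108870716), was 5.42 in resistant cells, against 7.30 and 8.42 in positive, 7.66 and 7.76 in negative and 8.9998 in unsorted parental cells. It lay below all 5 by a gap of 0.37, with a log2 difference of -0.64 from the unsorted library. Its partner XRCC4 was 6.32 in resistant cells, within the range of the 5, and 10.0 in the unsorted parental library. XRCC6 has processed copies elsewhere in the genome and its level is uncertain.

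The other 95 genes of these pathways, from lists of their further members, were set beside the 53. In the resistant against unsorted parental comparison 94 were measured. The 2-fold rule was met upward by 4, RAD1, CDC25A, POLB and PARP3, and downward by 4, among them RAD52, RMI2 and MPG. Of all genes 13.5 percent met it upward and 6.9 percent downward. Among 20 further checkpoint genes, RAD1, a subunit of the clamp that TOPBP1 binds, was 25.0 in resistant cells, against 7.85 to 8.33 in sorted and 8.56 in unsorted parental cells, and the mitotic phosphatase CDC25C had the lowest ratio, at 4.17 in resistant, 2.73 to 4.20 in sorted and 9.12 in unsorted parental cells. Among 26 of recombination and Fanconi repair, RAD54B was highest, with a log2 difference of 0.91, and RMI2 lowest with -1.25. Among 19 of base excision repair, PARP3, a relative of PARP1, was highest with 1.56 and the glycosylase MPG lowest with -1.10. Among 20 of nucleotide excision repair, GTF2H1, a subunit of the factor that opens DNA around the lesion, was highest with 0.91. In this list RAD23B was listed at 0 in all 4 sorted libraries and at 58.7 in resistant and 65.8 in unsorted parental cells. Its log2 difference of 5.90 from the sorted mean rests on those values of 0 and is not read as a change. It stayed in the counts over all genes. Among 6 of end joining, POLM was highest with 0.60 and POLL lowest with -0.63, and 4 of mismatch repair lay between -0.32 and 0.33. The median over these genes was -0.01.

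Sorting and the unsorted state were compared next, since several of these results turn on the unsorted parental library. No member was 2-fold higher or lower in the mean of the sorted libraries than in the unsorted parental library, against 5.39 percent of all genes higher and 2.08 percent lower. All 4 sorted libraries lay above the unsorted one in 22 members, against 44.8 percent of all genes, and below it in 16, against 36.2 percent. The largest differences were 0.78 for MSH6, 0.65 for FANCB and 0.61 for PRKDC on the higher side and -0.80 for ERCC5, -0.52 for XRCC4 and -0.52 for XRCC2 on the lower side. These comparisons share the parental library with the resistant one, and with 1 unsorted library they have no replicate check.

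TRA-1-81 positive and negative cells were then compared with limma over 11533 genes, with 2 libraries each. At an adjusted p under 0.05 (Benjamini-Hochberg) none of the 53 members was called, against 0.00867 percent of all genes, which is 1 gene. At an unadjusted p under 0.05 there were 5 members, CHEK2, BRCA2, RBBP8, FANCB and FANCI, against 4.9 percent of all genes. With the number in the title as a block 15 members passed the adjusted threshold, or 28.3 percent, against 12.9 percent of all genes. Libraries of the same number deviated together (correlation 0.65 over 11533 genes), so the calls depend on whether the number enters the fit. With 2 pairs and no label for what the number marks, neither fit is preferred. Within both numbers 25 members were higher in positive cells, against 38.4 percent of all genes, and 9 lower, against 30.5 percent. Both positive libraries lay above both negative ones in 17 members, or 32.1 percent, against 18.6 percent of all genes, and below them in 3, ERCC1, ERCC2 and XRCC4, against 12 percent. The members that lay higher within both numbers were 8 of 12 checkpoint, 7 of 11 recombination and 7 of 11 Fanconi genes, and none of 7 in base excision repair.

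The sizes were small. CHEK2 averaged 13.4 ± 0.247 in positive and 10.8 ± 0.762 in negative cells (FPKM, SD, n = 2 each), a log2 difference of 0.30 ± 0.08 (SE, limma adjusted p = 0.714), with 0.25 within 0603 and 0.35 within 0610. RBBP8 averaged 22.4 ± 1.28 in positive and 18.2 ± 1.21 in negative cells, a difference of 0.29 ± 0.08 (limma adjusted p = 0.775), with 0.28 and 0.30 within the numbers. BRCA2, whose libraries had 4.16 and 3.80 in positive and 3.25 and 3.05 in negative cells, differed by 0.26 ± 0.08 (limma adjusted p = 0.857). In each of these 3 genes both positive libraries were above both negative ones. No difference passed the test in this fit, which has no covariate for the number in the title. With the number as a block all 3 were called. The 3 lowest were ERCC1 with -0.17, XRCC4 with -0.16, at 6.52 and 6.06 in positive and 7.21 and 7.12 in negative cells, and ERCC2 with -0.13, at 30.1 and 28.5 in positive and 33.4 and 30.9 in negative cells.

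Beside these members stood a list of 20 mitosis genes, all 20 of them higher in positive cells within both numbers, with a median log2 difference of 0.23, while the members' median was 0.04 and that of all genes 0.01. The 27 genes of a DNA replication list had a median of 0.03. The part of cell cycle genes in the members' differences was not tested.

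**Figure D4:**
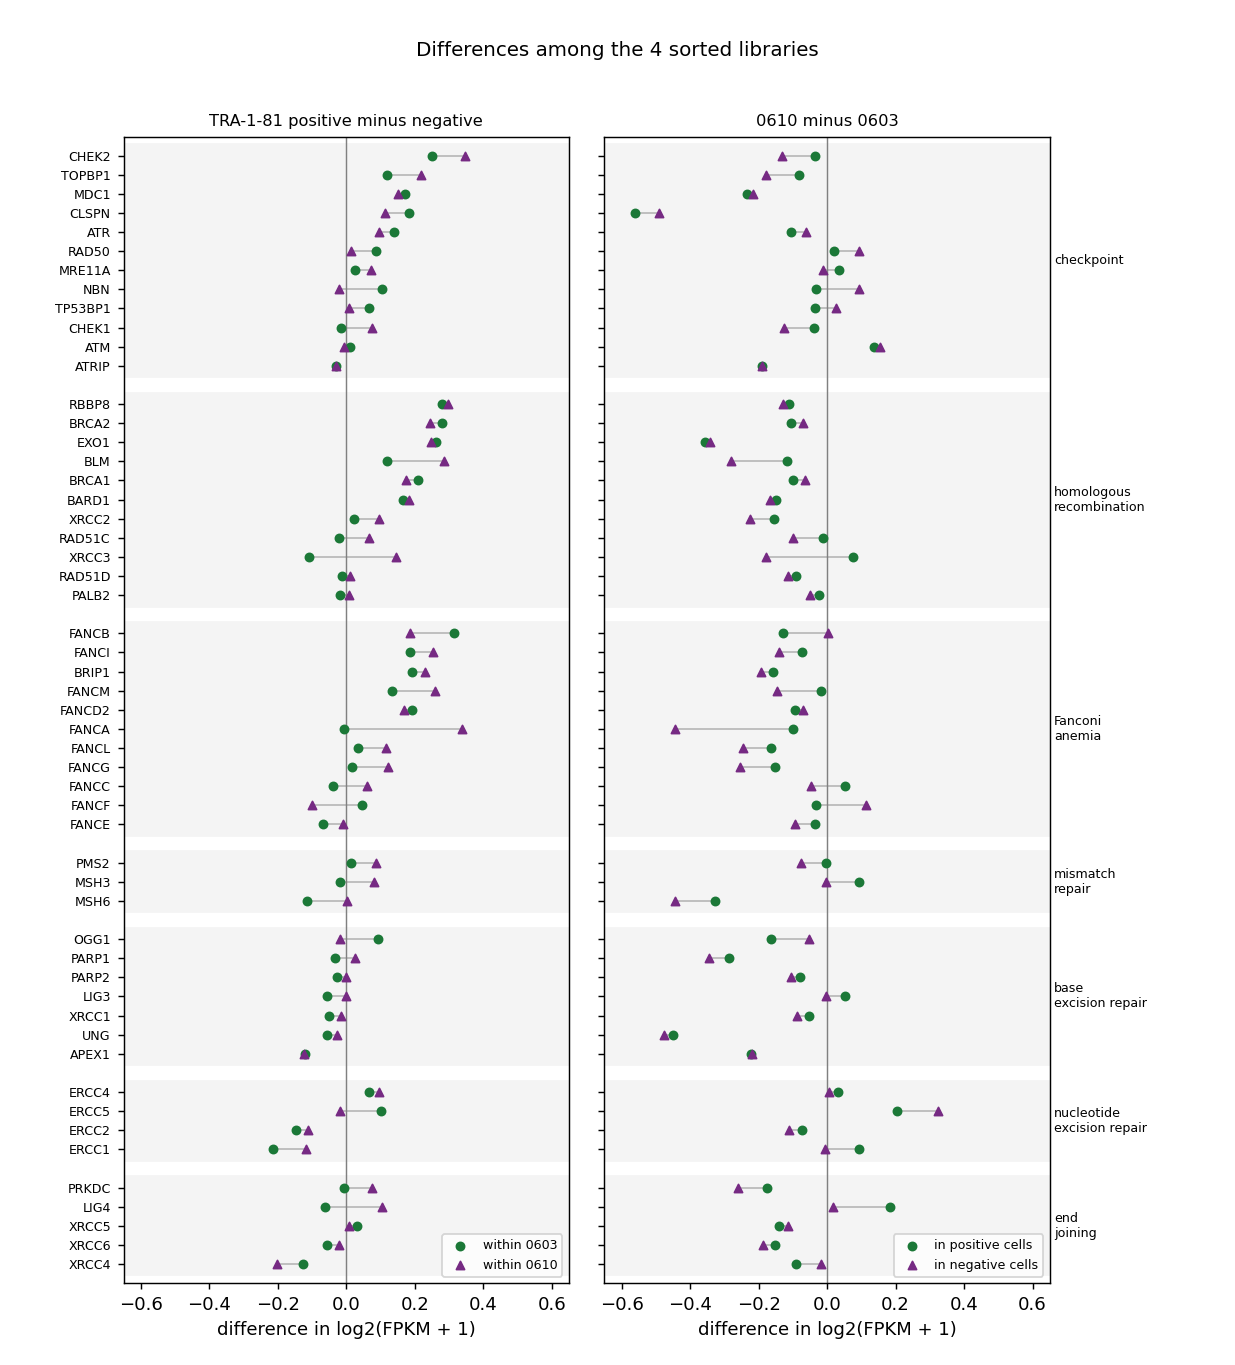
Differences in log2(FPKM + 1) of the 53 members among the 4 sorted libraries, on the left positive minus negative within 0603 (circles) and within 0610 (triangles), and on the right 0610 minus 0603 within the positive (circles) and the negative fraction (triangles). On the right most symbols lie left of 0, with CLSPN and UNG furthest, and on the left no member passes 0.4.

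The libraries titled 0610 were set against those titled 0603 across the same 11533 genes. In limma, 5 members passed an adjusted p under 0.05, against 9.08 percent of all genes, and all 5 were lower in 0610, CLSPN, MSH6, PARP1, UNG and PRKDC, where 3.38 percent of all genes were lower and 5.7 percent higher. At an unadjusted p under 0.05 there were 16 members, against 30.4 percent. Within both fractions 38 members were lower in 0610, against 38.3 percent of all genes, and 5 higher, ATM, RAD50, ERCC4, ERCC5 and LIG4, against 42.4 percent. The members' median was -0.08 and that of all genes 0.01. Leaving out any 1 of the 4 libraries left a number with a single library, so only the sizes are given. CLSPN then differed by -0.62 to -0.43, UNG by -0.49 to -0.44 and MSH6 by -0.44 to -0.33. PARP1 differed by -0.33 to -0.30 and PRKDC by -0.26 to -0.18. With the fraction as a block 23 members passed, against 41.2 percent of all genes, 21 of them lower in 0610.

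UNG, which removes uracil from DNA, was 17.8 and 18.2 in the positive and negative 0610 libraries and 24.7 and 25.7 in those of 0603, and it fell by 0.46 ± 0.05 on the log2 scale (SE, limma adjusted p = 0.0147). PARP1 was 55.9 and 54.9 in the 0610 libraries and 68.4 and 70.03 in those of 0603, and it fell by 0.32 ± 0.04 (limma adjusted p = 0.0218). MSH6 was 31.5 and 31.5 in the 0610 libraries and 39.8 and 43.2 in those of 0603, and it fell by 0.39 ± 0.05 (limma adjusted p = 0.026). For these genes the positive and the negative library of a number lay close together, and the numbers did not overlap. CLSPN was 5.13 and 4.68 in the 0610 libraries and 8.06 and 6.98 in those of 0603, and it fell by 0.53 ± 0.09 (limma adjusted p = 0.0347). PRKDC fell by 0.22 ± 0.04 (limma adjusted p = 0.0494), close to the threshold.

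On the other side ERCC5 was highest, at 11.5 and 11.6 in the 0610 libraries and 9.83 and 9.09 in those of 0603, a difference of 0.26 ± 0.06 that did not pass (limma adjusted p = 0.0538). ATM was next with 0.15, at 10.1 and 10.1 in 0610 and 9.06 and 8.99 in 0603, and then LIG4 with 0.10. In recombination 10 of 11 members were lower in 0610 within both fractions, in base excision repair 6 of 7 and in the Fanconi group 8 of 11. Genes of DNA replication were lower with them: all 27 of that list were lower in 0610 within both fractions, 12 passed the test in limma, and the median was -0.27. The mitosis list had a median of 0.07. The part of replication in the members' differences was not tested, and what the numbers mark is not given.

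**Figure D5:**
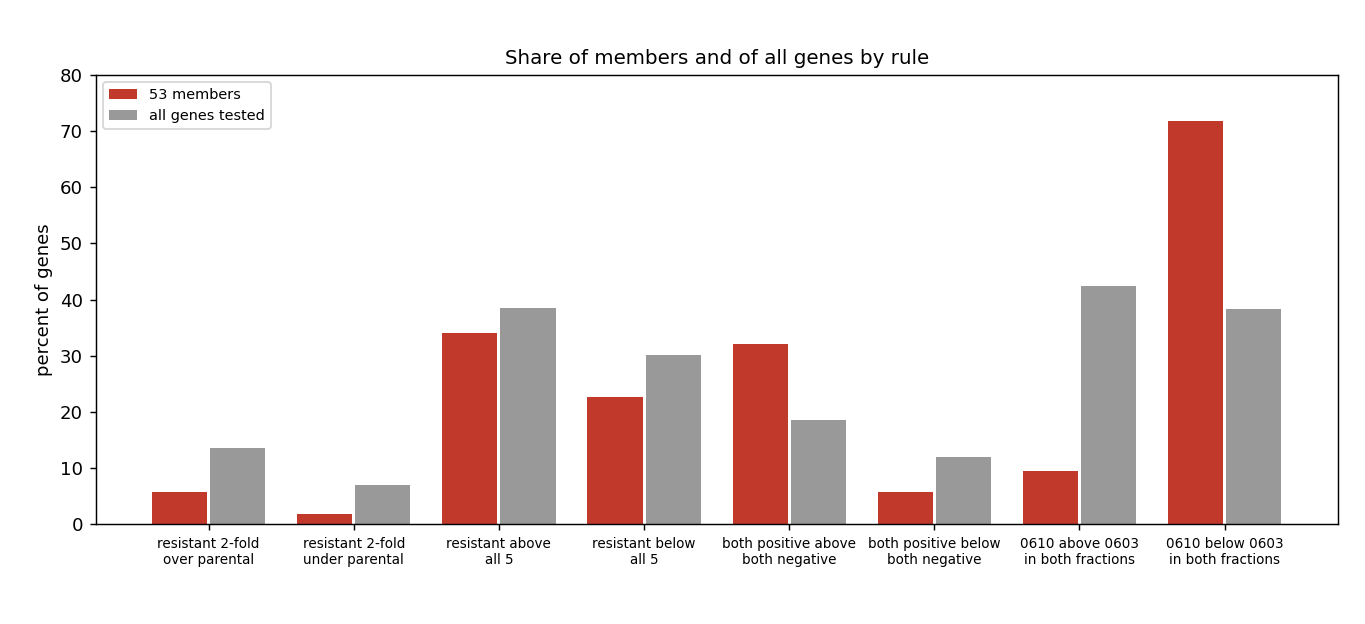
Percent of the 53 members (left bar of each pair) and of all genes tested (right bar) that meet each rule. The members' share is the higher one for both positive libraries above both negative ones, at 32.1 and 18.6 percent, and for 0610 below 0603 within both fractions, at 71.7 and 38.3 percent, and it is the lower one for the other rules drawn.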

How the data were processed

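The 53 members, their grouping by pathway, the other gene lists and the tests were chosen with earlier results of these data known. A single deposited table holds a value per gene and library, with positions in hg19 and no unit in its header. The values were taken as FPKM made by the authors, since Cufflinks 2.1.1 is named in the submitters' processing notes, as are TopHat2 2.0.11 and CASAVA 1.8.2. The sources used here do not give settings or the use of strand. Cufflinks shares fragments between overlapping transcripts, so no counts were recovered, depth is known only roughly, and genes that overlap others or have near-identical copies are uncertain.

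Where 191 symbols had several rows, the one with the highest mean stayed, which left out 235 of 19312 rows and touched no member. Values were analysed as log2(FPKM + 1), and 1 was added to the table's starts. The tests among sorted libraries used limma 3.58.1 under R 4.3.3, with moderated statistics, a mean trend and no covariate. They were two-sided, with Benjamini-Hochberg over all genes of at least 1 FPKM in at least 2 of 4 libraries. The fit was tried on simulated data with independent libraries. That setting leaves out that real libraries of the same number deviated together. Resistant against unsorted parental cells has 1 library each and no test. Library-by-library values are given for members at least 2-fold apart in that comparison, for those outside all 5 parental-line libraries by at least 0.3, for the 3 highest and 3 lowest of each sorted comparison and for the highest and lowest ratio of each pathway; PARP1, PRKDC and other members are given as part of their pathway or of the test. Values of some genes of the other lists are not reported here. Alternatives were the pseudocount, the filter on low values, quantile normalization, the mean trend, summed rows, blocks and leaving out libraries.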

Additional observations from a re-analysis of the deposited data

How the results depend on the processing

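With a pseudocount of 5 in place of 1, 1 member was 2-fold higher and 0 were lower in resistant than in unsorted parental cells; RBBP8 was at least 2-fold higher under all alternatives run. ERCC5 was then at -0.82. The member median of that comparison turned negative, to -0.032, with quantile normalization, and the median of all genes shifted by -0.16, to -0.07. Under it 2 members were 2-fold higher, and with a pseudocount of 0.1 there were 4. The 2-fold shares of all genes under these pseudocounts and this normalization are not given here. Requiring a gap of 0.3 left 6 members above and 6 below the parental line. Between positive and negative cells, a replicate block on the number in the title called 12 members higher and 3 lower in positive cells. Of all genes 12.9 percent were called. Among the members called higher were CHEK2 (limma adjusted p = 0.00235), RBBP8 (0.00104) and BRCA2 (0.0179). Libraries of the same number deviated together (correlation 0.65 over 11533 genes), so these calls depend on whether the number enters the fit. With 2 pairs and no label for the number, neither fit is preferred. Between 0610 and 0603, 1 member was called higher with a minimum FPKM of 5 and 2 with the fraction as a block, and 1 was called lower with no filter and 21 with the block. Of all genes, 1193 of 8760 were called in either direction with that minimum, 4753 of 11533 with the block and 111 of 16813 with no filter. Leaving out each sorted library in turn left a single library in a group, so those fits were read by size alone. PRKDC lost its call with no filter, with quantile normalization and without the mean trend. The cause of these changes was not tested. The other 121 values lay within 1.5 times the main count, or within the replicate spread of a median, which does not say that the same members were called. Depth limits the lowest members, such as ERCC4 and FANCB, and every result on resistant cells rests on 1 library of them.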
